A study of Aegilops tauschii x Triticum turgidum and Aegilops tauschii and Triticum turgidum subsp. durum with 18 samples.

Results

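CAT1, a catalase gene of wheat, was followed on 18 arrays covering 2 synthetic hexaploid crosses, their parents and a natural hexaploid wheat. The gene was read from 1 Affymetrix probe set that the array annotation assigns to it, and it is 1 of the 771 gene symbols that the same annotation pairs with probe sets. It was selected on its level, which earlier work on the same data had found lower in synthetic hexaploids than in mixed RNA of their parents and higher in natural wheat. Its levels and differences are therefore given as a description with their errors and without a test.

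Catalase breaks hydrogen peroxide down to water and oxygen inside peroxisomes. In green plant tissue much of that peroxide arises in photorespiration, when glycolate oxidase oxidises the glycolate that leaves the chloroplast. Catalase also removes peroxide made during fatty acid oxidation, and it acts beside ascorbate peroxidase and other peroxidases, which need a reductant where catalase needs none.

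RNA came from whole untreated plants of 40 days, with 2 arrays in each of 9 groups. Joyau, a cultivar of Triticum turgidum, served as tetraploid parent. On the diploid side stood Aegilops tauschii spp. strangulata accession 36 (Ae36) and Ae. tauschii spp. tauschii accession 54 (Ae54). Equal amounts of Joyau and diploid RNA made the mixes mix36 and mix54. The hybrids of Joyau with each accession were measured at selfed generation 0 (S0_36 and S0_54), and the cross with accession 54 also at selfed generation 1 (S1_54). Triticum aestivum cultivar Courtot was the natural hexaploid. Both Ae36 arrays and Ae54 replicate 2 carry 20 µg in their extract label and the others 40 µg. The genotype label reads hexaploid for all samples, the parents included, so the groups rest on the sample descriptions. The organism and extract labels of Ae54 replicate 1 name the hybrid and mix54, which its description does not. The labels call the plant arrays biological replicates without saying how many plants gave each RNA, and those of the mixes only replicates.

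Values are log2 expression values made by the authors with GCRMA, so a difference of 1 is a doubling. They ran from 1.24 to 15.54 over all probe sets, with array medians between 2.86 and 3.04, and 11733 to 14025 of the 18189 tested probe sets reached a log2 value of 5 on an array. Over these probe sets the SD of the difference between both arrays was 0.131 for mix36 and 0.117 for mix54, against 0.460 to 0.671 in the plant groups, so each pair of mix arrays was counted as 1 sample. The number of arrays limits the precision. Green tissue was represented on every array: petC, which encodes the Rieske iron-sulphur protein of the photosynthetic electron transport chain, lay between 12.96 and 14.18, and FBP, a fructose-1,6-bisphosphatase, between 9.30 and 10.86.

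CAT1 was higher in the tetraploid than in either diploid parent. The Joyau arrays read 12.87 and 12.92, the Ae36 arrays 11.00 and 11.18, and the Ae54 arrays 12.00 and 11.85. No array of one parent overlapped those of another, and the replicates lay close together. The Joyau mean of 12.89 ± 0.03 (SD, n = 2) exceeded that of Ae36, 11.09 ± 0.13, by 1.80 ± 0.24 (SE), which is 3.49 times the linear level. It exceeded that of Ae54, 11.92 ± 0.11, by 0.97 ± 0.24, or 1.96 times. The diploids themselves differed by -0.83 (Ae36 minus Ae54). These differences cross species, and how well the probes match each species was not tested. In RNA from whole plants, fewer cells of a type and less RNA per cell cannot be told apart.

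**Figure D1:**
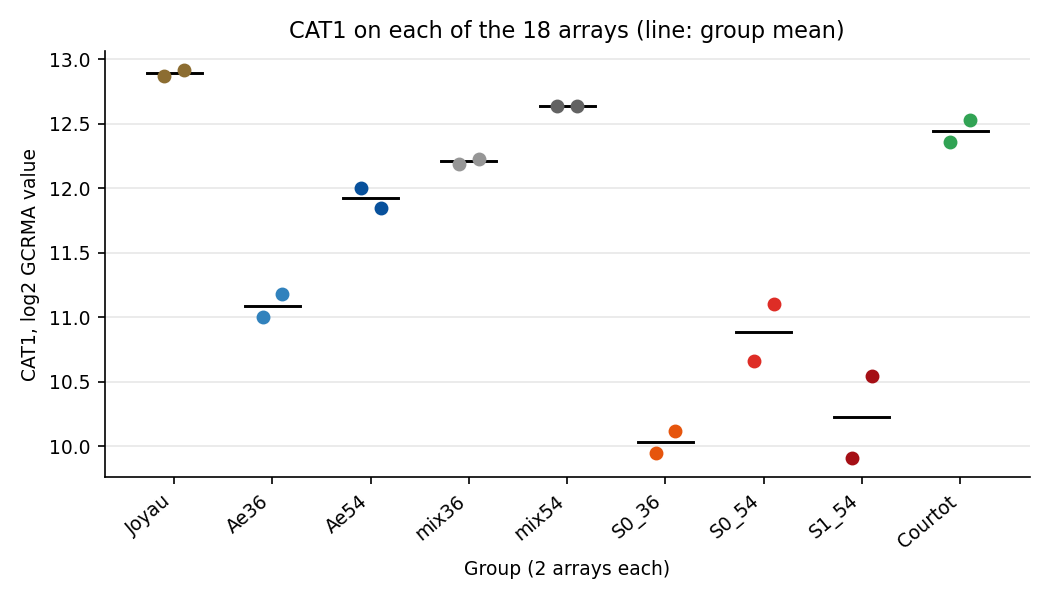
CAT1 on each array, as log2 GCRMA value, by group. Points are arrays and lines are group means of 2 arrays; the axis does not start at 0. The 6 synthetic arrays lie between 9.91 and 11.10, and each synthetic lies below its own parents, while Courtot lies between Joyau and the diploids.

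The RNA mixes read close to what the parents predicted. The mix36 arrays stood at 12.19 and 12.23 and the mix54 arrays at 12.64 and 12.64. A 1:1 mid-parent computed on the linear scale was 12.26 for cross 36 and 12.49 for cross 54. The mixes therefore lay -0.05 and 0.15 from it, that is at 96.8% and 111% of the computed level. Over all tested probe sets the quartiles of such deviations ran from -0.31 to 0.15 for mix36 and from -0.34 to 0.29 for mix54.

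In the cross with accession 36, the synthetic plants read lower than either parent. The S0_36 arrays stood at 9.95 and 10.11, a mean of 10.03 ± 0.12 (SD, n = 2). Both lay below both Ae36 arrays by more than the gap within either group. The mean differed from mix36 by -2.18 ± 0.30 (SE), or 22.1% of the mix level. It differed from Joyau by -2.86 ± 0.24 and from Ae36, the lower parent, by -1.06 ± 0.24. The hexaploid receives 2 genomes from the tetraploid and 1 from the diploid parent. Against a computed mid-parent of 2 parts Joyau to 1 part Ae36 the difference was -2.47, or 18.0%.

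In the cross with accession 54, the same order was seen. The S0_54 arrays stood at 10.66 and 11.10, a mean of 10.88 ± 0.31 (SD, n = 2), and both lay below the lower Ae54 array. The mean differed from mix54 by -1.76 ± 0.30 (SE), or 29.6% of the mix level, from Joyau by -2.01 ± 0.24 and from Ae54 by -1.04 ± 0.24. Against the 1:1 and 2:1 mid-parents the differences were -1.61 and -1.75. Without Ae54 replicate 1, whose labels disagree, the difference from Ae54 was -0.97.

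The low level was also present in the next selfed generation. The S1_54 arrays stood at 9.91 and 10.54, a mean of 10.22 ± 0.45 (SD, n = 2), the widest replicate spread of CAT1 among the 9 groups. The mean differed from mix54 by -2.41 ± 0.30 (SE), or 18.8% of the mix level, and from Ae54 by -1.70 ± 0.24. It differed from S0_54 by -0.66 ± 0.24. The S0_54 and S1_54 arrays did not overlap, but the nearest arrays were only 0.12 apart. The difference between generations shrank to -0.34 without S1_54 replicate 5, and was -0.97 without replicate 7. Over all tested probe sets the values were also lower in S1_54, with a median difference of -0.22 from S0_54 and -0.27 from mix54. Relative to these medians CAT1 stood at -0.44 and -2.15. The S0_54 and S1_54 comparisons share the arrays of mix54, Ae54 and Joyau.

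At generation S0 the crosses resembled each other in their distance to the diploid parent. CAT1 was at 48.0% of the Ae36 level in S0_36 and at 48.6% of the Ae54 level in S0_54. Each of these log2 differences has an SE of 0.24. In S1_54 it was at 30.8% of the Ae54 level. Against Joyau the crosses lay farther apart, at 13.7% in S0_36 and 24.8% in S0_54. The synthetics differed by -0.85 ± 0.24 (S0_36 minus S0_54, SE) and their diploid parents by -0.83 ± 0.24. Both values come from the same group means, so their closeness restates that of 48.0% and 48.6%. The mixes differed less, by -0.43 ± 0.34. Measured from the mixes, S0_36 was lower than S0_54 by -0.42 ± 0.42, about 1 SE.

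**Figure D2:**
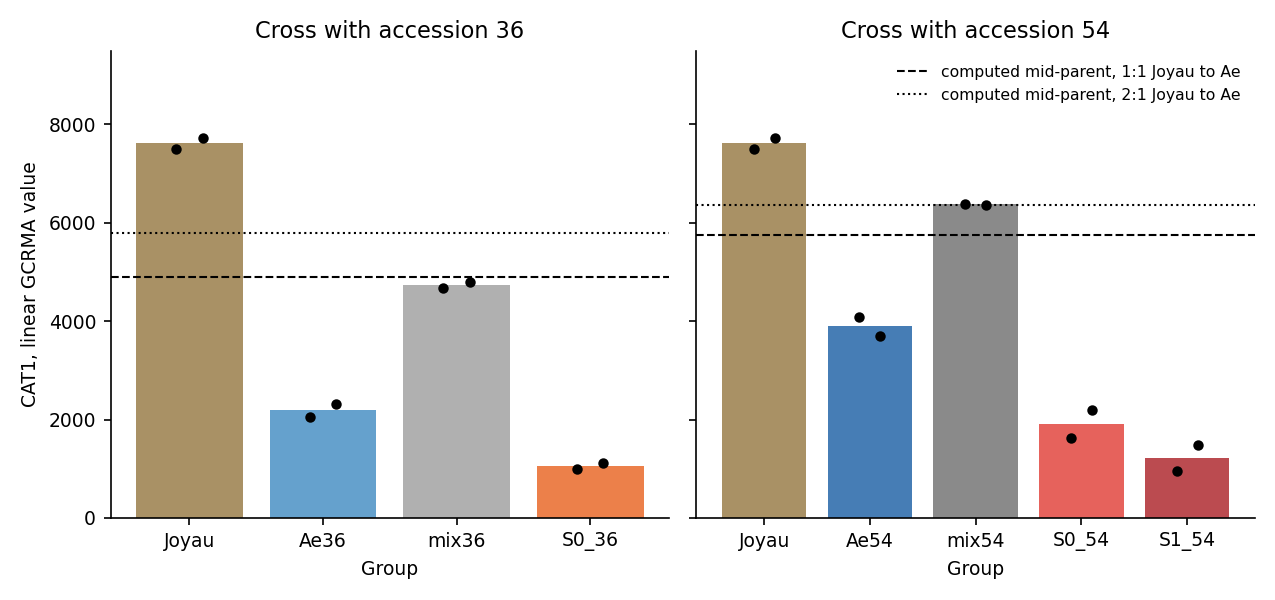
CAT1 on the linear GCRMA scale in each cross, in arbitrary units. Bars are means of 2 arrays, points are single arrays, and the dashed and dotted lines are mid-parents computed at 1:1 and 2:1. The synthetics average 1048 to 1910, below Ae36 at 2184 and Ae54 at 3892 and far below Joyau at 7616.

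Courtot did not share the low level of the synthetics. Its arrays stood at 12.36 and 12.53, a mean of 12.44 ± 0.12 (SD, n = 2), above all 6 synthetic arrays. The mean exceeded that of the 3 synthetic groups by 2.06 ± 0.20 (SE), or 4.18 times. It lay within the range of the parental species: below Joyau by -0.45 ± 0.24 and above Ae36 by 1.35 and Ae54 by 0.52. Courtot was not derived from these crosses, so natural origin and genotype cannot be told apart in this comparison.

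From highest to lowest, the groups ran Joyau, mix54, Courtot, mix36, Ae54, Ae36, S0_54, S1_54 and S0_36. The pooled SD between replicate arrays of the plant groups was 0.22 for CAT1, below the median of 0.30 over the tested probe sets. Neighbours in this order that differed by less than it were mix54 and Courtot (0.20), Ae36 and S0_54 (0.21) and S1_54 and S0_36 (0.19). Of these, the arrays of the last 2 pairs overlapped. The steps from Ae54 to Ae36 (0.83) and from S0_54 to S1_54 (0.66) were the widest. The whole range of group means was 2.86, or 7.27 times.

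Set among the 18189 tested probe sets, CAT1 lay in the lower tail of the comparisons with the mixes. Only 1.08% of probe sets had a difference as low in S0_36 minus mix36, 2.84% in S0_54 minus mix54 and 1.84% in S1_54 minus mix54. Against the lower parent it was less extreme, with 15.9%, 13.6% and 9.41% as low in S0_36 minus Ae36, S0_54 minus Ae54 and S1_54 minus Ae54. In Courtot minus the synthetics 2.14% were as high. Because CAT1 was selected on such differences, these shares describe its place and nothing more.

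**Figure D3:**
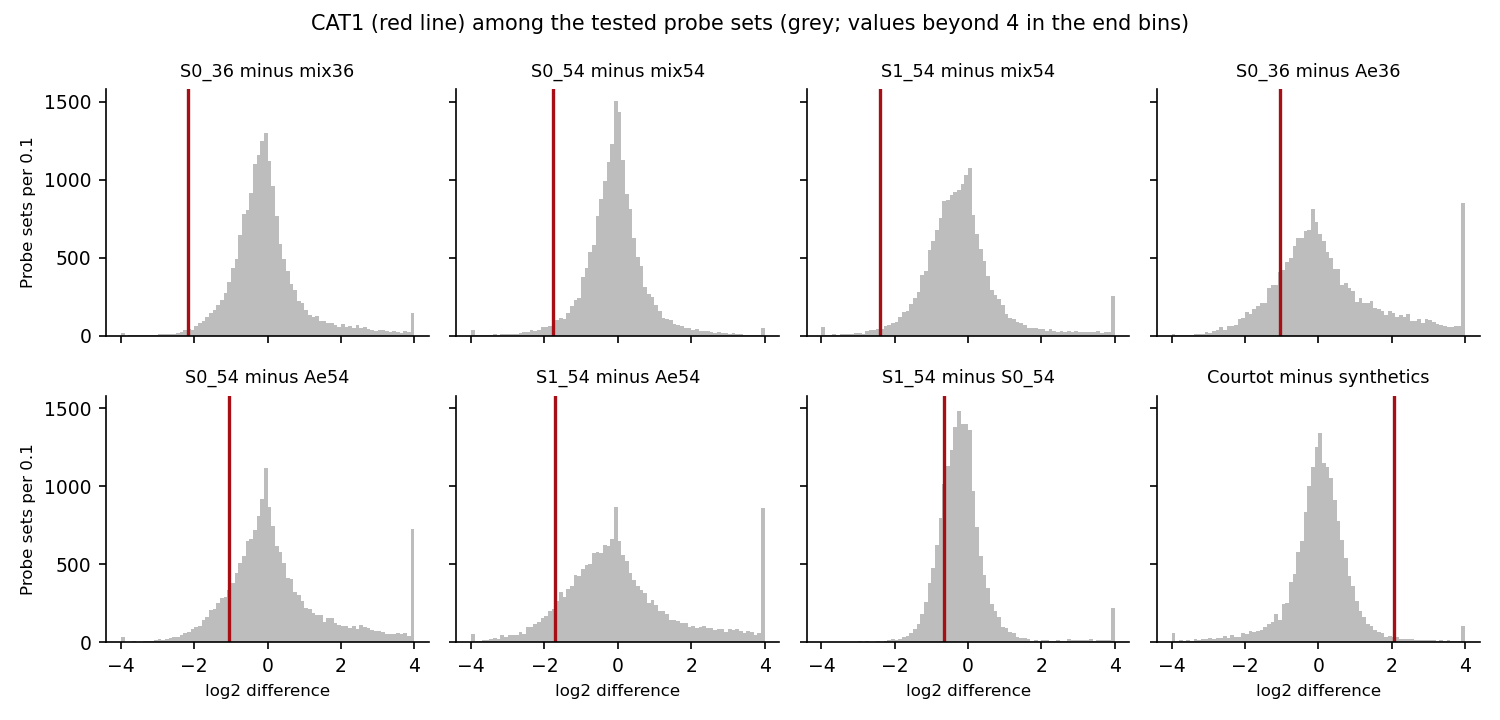
Differences of group means for all tested probe sets (grey histograms, bins of 0.1 on the log2 scale) in 8 comparisons, with CAT1 as the red line. CAT1 is at -2.18, -1.76 and -2.41 in the 3 comparisons with a mix and at 2.06 in Courtot minus the synthetics, near the edge of the grey distribution, and within its flank in the comparisons with Ae36 and Ae54.

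Within a single synthetic group, an order like that of CAT1 was not rare. Both arrays of S0_36 lay below all 4 parental arrays for 13.1% of tested probe sets, those of S0_54 for 11.3% and those of S1_54 for 19.6%. All 3 synthetics did so for 4.39%, CAT1 among them. With the added condition that both Courtot arrays exceed all 6 synthetic arrays, which CAT1 also met, 2.77% remained (503 probe sets).

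The annotation gives CAT1 a second probe set, which the selection did not use. It stayed below the log2 value of 5 required for testing on every array, between 1.76 and 4.01, and gave no reading of the gene. At that level no order of the groups is drawn from it. No other probe set carries the CAT1 symbol.

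Few other genes of peroxide metabolism and photosynthesis could be followed by name. Of 7 gene lists, on catalase, superoxide dismutase, other peroxide and glutathione enzymes, photorespiration, peroxisomes, photosynthesis and stress, 4 matched no symbol. Beside CAT1 they held 5 probe sets, of which 2 were tested, those of petC and FBP. Their second probe sets and that of COR410, a dehydrin gene induced by cold, did not reach the required level.

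The photosynthesis genes differed less between synthetics and mixes than CAT1 did. CAT1 was selected on that difference, so no result is drawn from the contrast. The petC arrays stood at 13.24 and 13.58 in S0_36, 13.58 and 13.69 in S0_54 and 12.96 and 13.40 in S1_54. Those of the mixes stood at 13.75 and 13.77 in mix36 and 13.65 and 13.58 in mix54. All petC arrays of the synthetics lay below those of their own parents, of which the lowest was 13.72 in Joyau. They also lay below both Courtot arrays, at 13.75 and 13.79. CAT1 had the same order, which 2.77% of all tested probe sets met. In S0 minus the mixes over both crosses petC was at -0.17 ± 0.18 (SE, limma adjusted p = 0.563) and FBP at 0.66 ± 0.27 (adjusted p = 0.113). For FBP both mixes lay below both of their parents, mix36 at 9.72 against Joyau at 10.03 and Ae36 at 10.14, and mix54 at 9.30 against Joyau and Ae54 at 10.85. By limma, 0 of these 2 passed at an adjusted p of 0.05 where 19.7% of all tested probe sets did, and 1 of them, FBP, had an unadjusted p under 0.05. Their median difference was 0.25, against -0.09 over all tested probe sets.

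The count was the same in 3 further comparisons. In S1_54 minus mix54, 0 of 2 passed by limma against 20.7% of all, with petC at -0.44 and FBP at 0.76, and 0 had an unadjusted p under 0.05. In S1_54 minus S0_54, 0 of 2 passed against 9.14%, and petC, at -0.46 ± 0.21 (SE, limma adjusted p = 0.183), was the 1 with an unadjusted p under 0.05. In Courtot minus the synthetics, 0 of 2 passed against 26.4% and 0 had an unadjusted p under 0.05, with petC at 0.37 (adjusted p = 0.137) and FBP at -0.25. Between the parents, 0 of 2 passed in Joyau minus Ae36, where 59.6% of all did and 0 of the 2 had an unadjusted p under 0.05. In Joyau minus Ae54, 1 of 2 passed against 55.9%: FBP was lower in Joyau, at -0.82 ± 0.31 (SE, limma adjusted p = 0.043), where CAT1 was higher. That call was lost, leaving 0 of 2, when any 1 of the 4 Joyau or Ae54 arrays was left out.

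**Figure D4:**
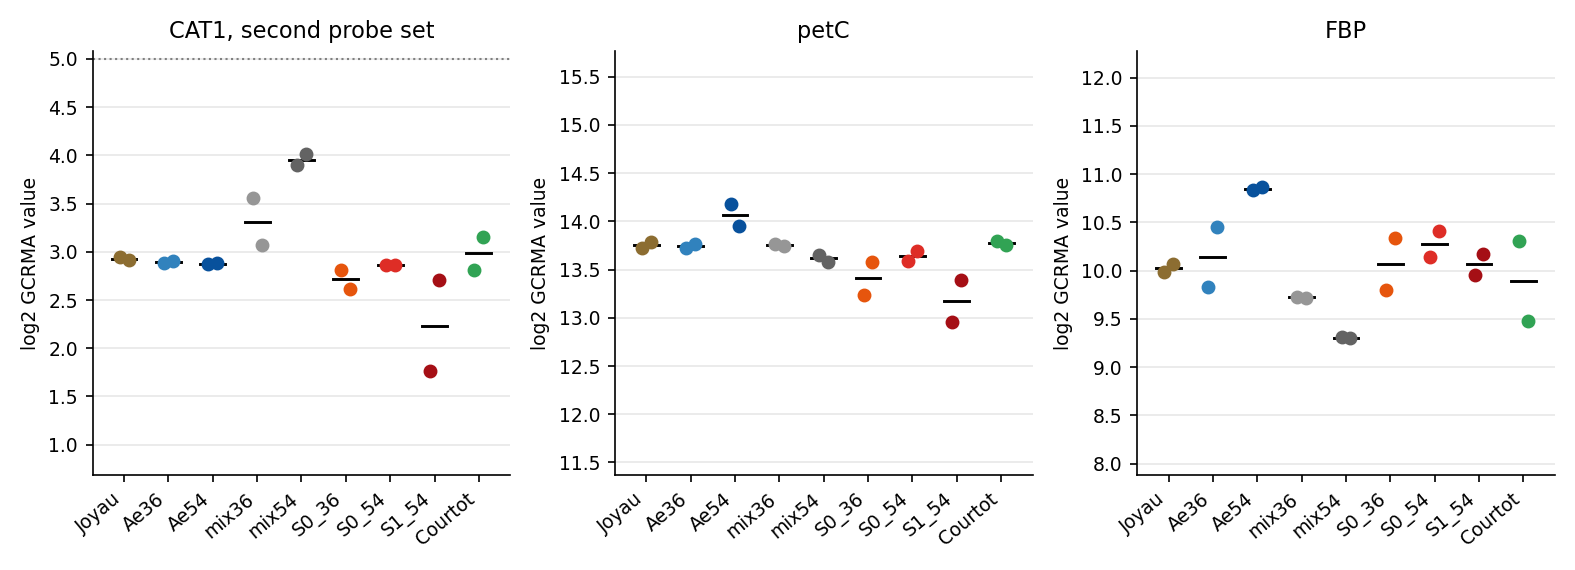
The second CAT1 probe set, petC and FBP on each array, as log2 GCRMA values. Points are arrays, lines are means of 2 arrays, and the 3 panels span the same number of log2 units; the dotted line in the first marks the value of 5 required for testing. The second CAT1 probe set never reaches it. The synthetic arrays of petC, at 12.96 to 13.69, lie below those of their own parents and of Courtot, as for CAT1, but overlap those of mix54. The synthetic arrays of FBP overlap those of other groups.

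The named gene most like CAT1 in its pattern was GAPN, the non-phosphorylating glyceraldehyde-3-phosphate dehydrogenase, which makes NADPH in the cytosol. Likeness was measured as Pearson's r of log2 values over the 16 samples, which share parental RNA in the mixes and are no independent draws. For GAPN r was 0.93 and Spearman's rho 0.89. Without S1_54 replicate 5 and S0_36 replicate 3, the samples farthest from the CAT1 median, r was 0.90. It was 0.65 within the 6 synthetic samples, where CAT1 spanned 9.91 to 11.10, and 0.89 within the other 10, where it spanned 11.00 to 12.92. The difference between these values was not tested. GAPN stood at 10.18 ± 0.05 in Joyau, 8.76 ± 0.02 in Ae36 and 9.49 ± 0.11 in Ae54 (SD, n = 2 each). It stood at 8.35 ± 0.70 in S0_36, 8.66 ± 0.31 in S0_54 and 8.39 ± 0.32 in S1_54, and at 9.55 ± 0.15 in Courtot. The S0_36 arrays of GAPN, at 7.86 and 8.85, lay on either side of the Ae36 arrays, so GAPN was not below both parents there as CAT1 was.

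Next in likeness among named genes came LOC732707 (r = 0.91, rho = 0.90), LOC543067 (0.87, 0.83), LOC543423 (0.85, 0.83), LOC780655 (0.84, 0.83) and LOC542786 (0.83, 0.84). Of these, LOC543067 came nearest to CAT1 in size in generation S0, at -1.91 in S0_36 minus mix36 and -1.18 in S0_54 minus mix54. In S1_54 minus S0_54 it was at 0.41, opposite in sign to CAT1. LOC732707 moved on a much smaller scale, with a range of group means of 0.64.

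The named genes least like CAT1 were LOC543297 (r = -0.87, rho = -0.86), LOC778394 (-0.86, -0.79) and LOC543333 (-0.85, -0.90). LOC778394 was at 8.69 ± 1.02 in S0_36 and 6.64 ± 0.05 in S1_54, where CAT1 was low, and at 2.87 ± 0.03 in Courtot and 3.08 ± 0.11 in Joyau (SD, n = 2 each). Its S0_54 arrays stood at 6.08 and 8.21. Outside the synthetics LOC778394 stayed below the log2 value of 5 on every array except Ae36 replicate 1, at 5.31. Ae36 replicate 2 was at 3.19. Its r of -0.86 therefore largely sets the synthetics against arrays below that value, among which no order is drawn. Within the 6 synthetic samples its r with CAT1 was -0.19.

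Among all 18188 other tested probe sets, 52 had an r of 0.9 or more with CAT1 and 2 had -0.9 or less. Only 2 of the 52 carry a gene symbol, GAPN and LOC732707. In 42 of the 52 all 3 synthetics lay below their own parents' arrays, against 4.39% of all tested probe sets. Likeness to CAT1 in part imposes this order, so no result is drawn from the count. The highest r was that of an unnamed probe set, at 0.98 (rho = 0.94), with 0.98 within the synthetic samples and 0.91 within the others. It stood at 11.13 ± 0.02 in S0_36, 11.76 ± 0.13 in S0_54 and 11.27 ± 0.23 in S1_54, against 12.57 in mix36, 12.65 in mix54 and 12.73 ± 0.02 in Courtot (SD, n = 2). The next 4, also unnamed, had an r of 0.95 or 0.96. The one of rank 3 had differences nearest to those of CAT1, at -2.14, -2.32 and -2.45 in S0_36, S0_54 and S1_54 minus their mixes.

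**Figure D5:**
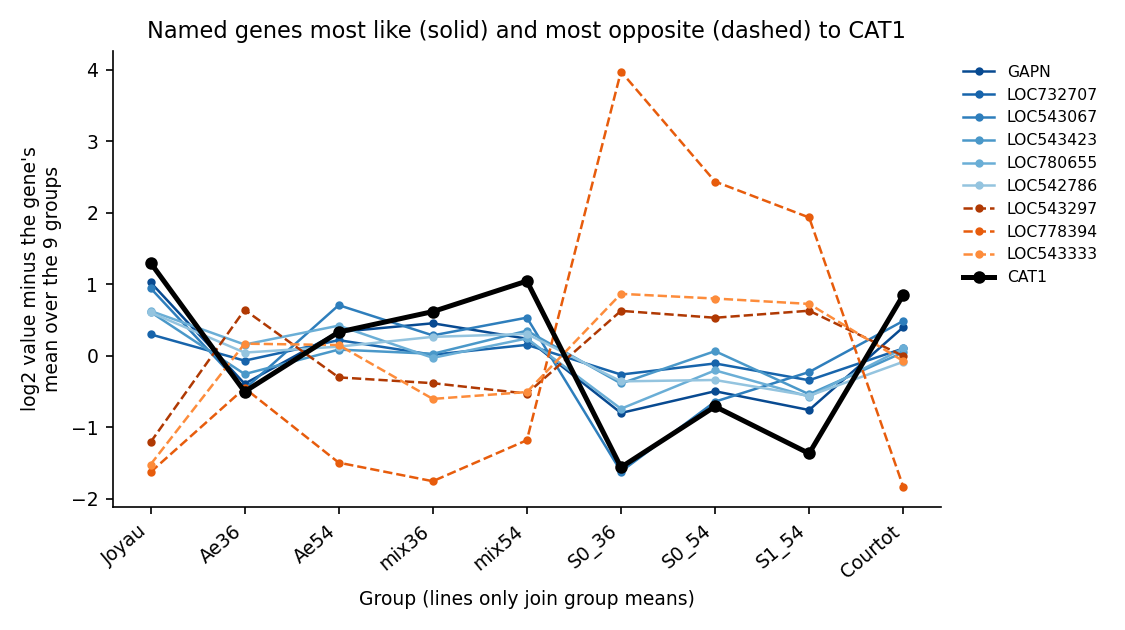
Group means of CAT1 (black), of the 6 named genes with the highest r (blue, solid) and of the 3 with the lowest r (orange, dashed), each minus its own mean over the 9 groups, in log2 units. CAT1 and the blue genes lie below their own means in the 3 synthetic groups, except LOC543423 in S0_54, and CAT1 and LOC543067 lie farthest below in S0_36. LOC778394 lies far above its mean there.

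Array controls moved with some groups. The mean of 9 hybridization controls was 10.26 ± 0.12 in S1_54 and 10.71 ± 1.55 in Ae36, against 8.71 in mix54 and 9.11 in mix36 (SD, n = 2 arrays each). An 18S ribosomal RNA control was at 8.23 ± 0.47 in S1_54, against 4.93 in mix54. In S0_36 these controls were at 9.58 ± 0.27 and 5.93 ± 0.05, with 18S at 5.17 in mix36, and in S0_54 at 9.16 ± 0.19 and 4.82 ± 0.96. The sucrose synthase control differed between its 3′ and 5′ probe sets by 4.17 in S0_36 against 4.15 in mix36, and by 3.94 in S0_54 and 4.48 in S1_54 against 4.12 in mix54. For ubiquitin the same difference was -2.16 in S0_36 against -2.28 in mix36, and -2.34 in S0_54 and -2.51 in S1_54 against -3.06 in mix54. For glucose-6-phosphate dehydrogenase it was 1.51 in S0_36 against 0.91 in mix36, and 1.62 in S0_54 and 1.82 in S1_54 against 1.75 in mix54. Between the parents the 3′ minus 5′ differences lay farther apart. For sucrose synthase they were 3.81 in Joyau, 5.35 in Ae36 and 5.37 in Ae54. For ubiquitin they were -3.36, -1.81 and -2.08 in the same order, and for glucose-6-phosphate dehydrogenase 1.17, 2.23 and 2.57. The part of these controls in the CAT1 levels was not tested.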

How the data were processed

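The deposited table gives 61290 probe sets on 18 arrays as log2 expression values. The authors used GCRMA to make them, as the submitters' processing notes state. Its version is not given in the sources used here. No column lacked a sample. GCRMA normalises arrays together and holds weak signals near a floor, so differences from weak groups are understated.

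The 111 control probe sets were left out, and tests were run on the 18189 others that reached log2 5 on 2 or more arrays. One limma 3.58.1 model (R 4.3.3) with a mean per group was fitted to 16 samples, the arrays of each mix averaged, with 7 residual and 3.44 prior degrees of freedom. Tests were two-sided with Benjamini-Hochberg adjustment over all tested probe sets. P-values measure the spread between these samples, which may be partly technical. SEs of CAT1 come from this fit. The script was tested on simulated data.

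CAT1, the 7 gene lists and the rules were chosen with earlier results of these data known. Named were CAT1, tested list members, the 6 genes of highest and 3 of lowest r with CAT1, and the 5 probe sets of highest r. Symbols come from the array annotation of 1273 probe sets. Alternatives were other scalings, mid-parents, no filter, separate mix arrays, array weights, fewer groups, a replicate block and leaving out replicates.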

Additional observations from a re-analysis of the deposited data

How the results depend on the processing

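Alternatives were run for 12 of the CAT1 differences in the report, among them each synthetic against its mix and its diploid parent. These kept their sign under all 79, and 70 of these moved them by less than the pooled replicate SD of 0.22. The arrays of both sides were separate in each of these differences, so leaving out 1 array could not reverse a sign. For those settings, which were most of the 79, the kept sign therefore carries no information, and only the size does. S0_36 minus mix36 was -2.47 against the 2:1 mid-parent. With each array centred on its median, S1_54 minus mix54 was -2.14 and S1_54 minus Ae54 was -1.45. Leaving out 1 array gave -2.73 to -2.10 for S1_54 minus mix54, -2.02 to -1.38 for S1_54 minus Ae54 and -0.97 to -0.34 for S1_54 minus S0_54. The r of GAPN was 0.65 over the 6 synthetic samples and 0.89 over the other 10, both alternatives chosen after seeing the data. It was 0.90 without the 2 samples farthest from the CAT1 median and 0.96 over the 9 group means. Spearman's rho over the 16 samples was 0.89. In the 4 comparisons with synthetics, the count of petC and FBP passing was 0 in the other settings, but 1 in S0 minus mix and 1 in S1_54 minus mix54 with the mix arrays as separate samples, which adds samples that differ little. In Joyau minus Ae54, whose alternatives were added after seeing the data, it was 1, but 0 with median centring, without the filter, with a replicate block and in each fit without 1 array (0 to 0), where the lone array of a group is assumed to vary like the other groups. With the replicate number as a block in the 4 groups numbered 1 and 2, Joyau minus Ae36 stayed at 1.80 and Courtot minus Joyau at -0.45, as a balanced design implies. Replicate differences of these groups correlated between -0.06 and 0.23, so the numbers were not taken as pairs. With 2 arrays a group, CAT1 rests on 1 working probe set, and no sequence of the gene or its probes was used here.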
